A study of Mus musculus with 12 samples.

Results

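The genotype-dependent part of the oxLDL response was measured as a difference between differences: the change with oxidised low-density lipoprotein (oxLDL) in macrophages lacking Atf3, minus the change with oxLDL in wild-type (WT) macrophages. It was read on all 12 of the 12 arrays of the series, 3 per group, and for every transcript-level probe set of the deposited table, 74007 in all, of which 39620 were bright enough to be tested. A positive value means that the knockout stayed higher, or rose more, than the WT response alone would give. A negative value means that it stayed lower, or fell more. All levels are on the log2 scale, so a difference of 1 is a doubling, and the difference of the responses is called the interaction below.

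The 12 cultures came from 12 female mice on a C57BL/6J background, aged 8 to 12 weeks and fed normal chow. Bone marrow was grown into macrophages in recombinant human M-CSF at 50 ng/mL, and the adherent cells were replated on day 6. The 4 groups were WT without stimulus, WT with oxLDL, Atf3-/- without stimulus and Atf3-/- with oxLDL, where oxLDL means human LDL oxidised with copper sulphate, added on day 7 at 25 ug/mL of protein for 24 h. The labels name the genotype as Atf3-/- and describe neither the targeted allele nor the breeding of the WT controls.

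ATF3, a member of the ATF/CREB family of transcription factors, is made under stress and can repress its targets. In macrophages it is induced by Toll-like receptor signals and holds back part of the inflammatory programme. Scavenger receptors carry oxLDL into macrophages, which then fill with lipid droplets. The incoming oxidised lipids act on oxysterol-sensing nuclear receptors and on the antioxidant factor Nrf2, and the load of sterol turns down sterol synthesis. A gene whose oxLDL response depends on ATF3 can show a difference between the genotypes in this contrast, whether or not their levels differ before stimulation.

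The rows of the table are named by Ensembl mouse transcript IDs, and the files and reference tables used here do not pair these with gene names: of 49997 reference genes, 0 carried an Ensembl ID. Transcripts are therefore given by ID, and Atf3 itself, the macrophage markers and the markers of other cell types were not analysed here. In each fit at most 2 IDs per direction are shown. The tested rows hold 38369 distinct profiles, since some IDs have identical values on all arrays.

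The arrays differed in how well replicates matched, and the difference ran along genotype. Pooled over transcripts, the replicate SD was 0.223 in unstimulated WT and 0.315 in WT with oxLDL, against 0.0671 and 0.0852 in the corresponding knockout groups. The root mean square distance of an array from the mean of its group mates was 0.507 for WT oxLDL replicate 3 and 0.307 for unstimulated WT replicate 1, each the highest of its group, and 0.0736 to 0.127 for the 6 knockout arrays. WT oxLDL replicate 2, which was kept, had 0.377, above that of unstimulated WT replicate 1. After quantile normalization the distances were 0.403 for WT oxLDL replicate 3, 0.304 for unstimulated WT replicate 1, 0.299 for WT oxLDL replicate 2 and 0.0727 to 0.105 for the knockout arrays. Results are therefore given with all 12 arrays, after quantile normalization, without both of these WT arrays, and with both changes, the last called the 10-array fit.

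With 12 arrays and the values as deposited, 1 transcript passed the test of the interaction, or 0.00252% of those tested (limma, Benjamini-Hochberg adjusted p below 0.05). The number of calls rose to 16 (0.0404%) after quantile normalization, to 109 (0.275%) without both WT arrays and to 352 (0.888%) in the 10-array fit. Directions were 0 positive and 1 negative, 13 positive (0.0328%) and 3 negative (0.00757%), 54 positive (0.136%) and 55 negative (0.139%), and 190 positive (0.480%) and 162 negative (0.409%), in that order. The single transcript of the 12-array fit was called in each of the other 3.

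The lists were largely nested. Of the 16 calls after quantile normalization, 14 were among the 109 without both WT arrays, which is 87.5% of the first list and 12.8% of the second, and all 16 were among the 352. Of the 109, 106 were among the 352, or 97.2% of the first and 30.1% of the second, each with the same direction. These fits share arrays, so the overlap describes the settings and is not a repeat measurement.

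**Figure D1:**
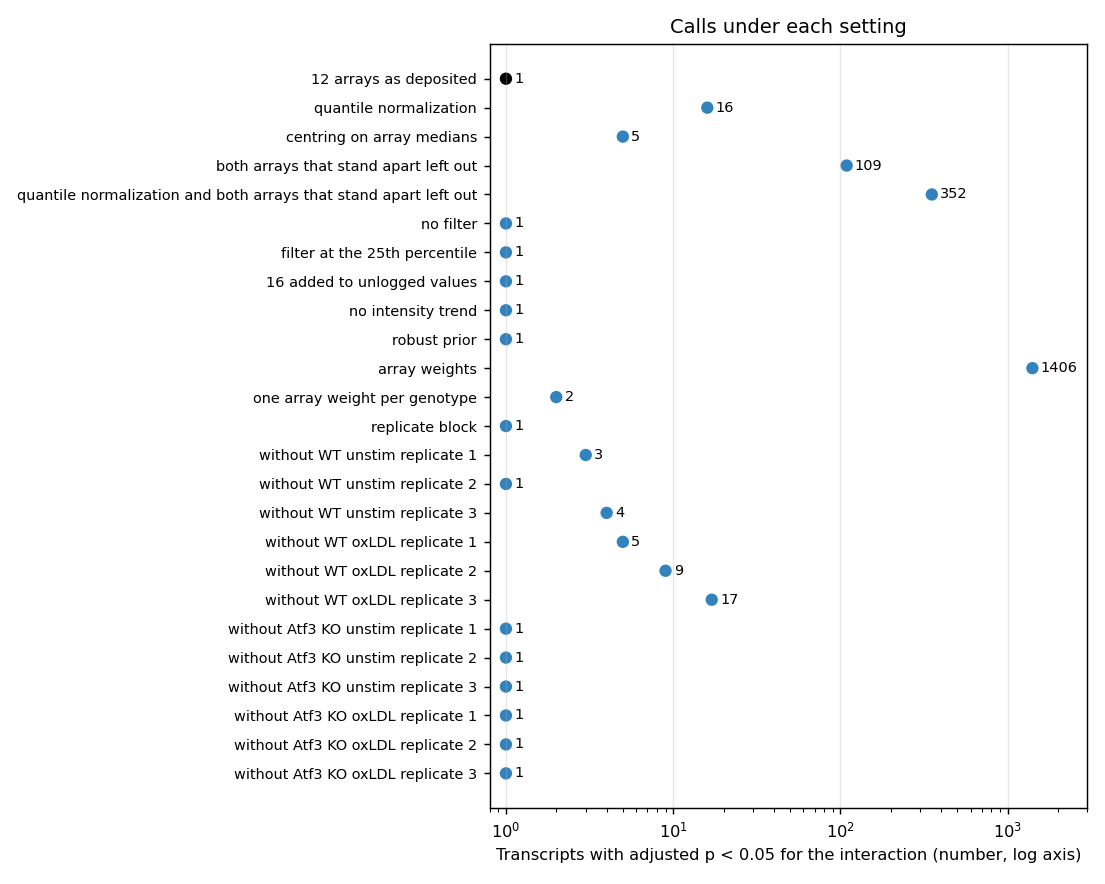
Number of transcripts with a limma adjusted p below 0.05 for the interaction (horizontal axis, logarithmic) under each setting (vertical axis). Leaving out a knockout array left the count at 1, while leaving out WT oxLDL replicate 3 gave 17 and the 10-array fit gave 352.

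The precision of the contrast sets what these counts can show. The median standard error of the interaction was 0.19 with 12 arrays, and at that error the first transcript to pass would need a difference of about 1.65. In the 10-array fit the median standard error was 0.10 and the first call would need about 0.999. The Benjamini-Hochberg threshold loosens as calls accumulate, so this is not the smallest difference that fit could call: the median absolute interaction of its 352 calls was 0.65, and 47 of them were over 1. A transcript missing from the lists may still respond differently in the genotypes. These errors take 1 spread per transcript for all 4 groups, although the replicate SD was 0.273 in WT and 0.0767 in the knockout. In the 10-array fit the WT means rest on fewer arrays, so its error may be too small for the WT part and its calls too many. With 12 arrays as deposited and 1 weight per genotype, 2 transcripts were called. At an unadjusted p below 0.05 there were 1149 transcripts with 12 arrays, or 2.90% of those tested. There were 2595 (6.55%) after quantile normalization, 3682 (9.29%) without both WT arrays and 5651 (14.3%) in the 10-array fit. With no interaction anywhere, a well-calibrated test would pass a share of about 0.05 at this threshold. The 2.90% with 12 arrays is below that share, so those 1149 transcripts are not a list of differing responses.

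The sign of the interaction over all transcripts varied with the scaling of the values and with the arrays read. It was positive for 60.7% of the tested transcripts with 12 arrays as deposited, for 49.2% after quantile normalization, for 35.5% without both WT arrays and for 51.4% in the 10-array fit. The median interaction was 0.05, -0.00, -0.05 and 0.00 in the same order. The balance of directions over all transcripts is therefore not given as a result.

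ENSMUST00000006392 had a strong oxLDL response in WT and a small one in the knockout. In WT it lay at 8.01, 7.90 and 7.81 without stimulus and at 9.83, 9.99 and 10.07 with oxLDL (log2 levels, replicates 1 to 3). In the knockout it lay at 7.65, 7.62 and 7.74 without stimulus and at 8.06, 7.98 and 8.00 with oxLDL. The 3 WT arrays with oxLDL stood clear of the other 9, and the unstimulated groups were both low.

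The WT rise was 2.06 (SE 0.08) and the knockout difference 0.35 (SE 0.08), which gave an interaction of -1.71 (SE 0.12, limma adjusted p = 1.18e-04). It lay above the array median on the 3 WT arrays with oxLDL and on no other, so it entered the test through the group where it is high, and no fold is given against the dim groups. Without the filter on low values the interaction was also -1.71 (adjusted p = 1.78e-04). The knockout difference had an adjusted p of 0.0610 in the 12-array fit and of 2.23e-04 in a fit to the 6 knockout arrays alone, whose groups did not overlap. The transcript was called in all 12 fits that left out 1 array, with an interaction of -1.78 to -1.66 and an adjusted p of 6.20e-05 to 0.00146. In the 10-array fit the interaction was -1.64 (SE 0.10, adjusted p = 9.49e-05). Both WT arrays that stood apart lay with their group mates for this transcript.

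The next transcripts in the 12-array ranking were falls in WT that were shallower in the knockout. ENSMUST00000038423 lay at 11.41, 11.21 and 10.68 in unstimulated WT and at 8.30, 8.65 and 7.84 in WT with oxLDL. The knockout arrays lay at 11.52, 11.61 and 11.48 without stimulus and at 10.83, 11.09 and 11.14 with oxLDL. All 6 knockout arrays and the unstimulated WT arrays were at or above 10.68, and the WT arrays with oxLDL were the only ones below. This transcript lay above the array median on only 1 of the 3 WT arrays with oxLDL, so its WT fall ended at dim levels on the others.

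Its level fell by 2.84 in WT (SE 0.21, limma adjusted p = 4.82e-05) and differed by -0.52 in the knockout (SE 0.21, adjusted p = 0.419, and 5.53e-04 with the 6 knockout arrays alone). The interaction was 2.32 (SE 0.30), with an adjusted p of 0.0562 with 12 arrays, which misses the threshold, and of 0.0186, 0.00247 and 0.00132 after quantile normalization, without both WT arrays and in the 10-array fit. The value kept its direction in 12 of 12 fits that left out 1 array, from 2.11 to 2.53, and passed in 3 of them.

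ENSMUST00000025580 fell in both genotypes, and the levels of the genotypes also differed before stimulation. In WT it lay at 10.39, 10.47 and 10.52 without stimulus and at 8.19, 7.65 and 7.91 with oxLDL. In the knockout it lay at 11.36, 11.58 and 11.42 without stimulus and at 10.38, 10.25 and 10.44 with oxLDL. Stimulated knockout macrophages therefore held about the level of unstimulated WT macrophages.

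The fall was 2.54 in WT (SE 0.13, limma adjusted p = 2.58e-06) and 1.10 in the knockout, where the difference of -1.10 passed (SE 0.13, adjusted p = 0.00287). This transcript lay below the array median on all 3 WT arrays with oxLDL, so its WT fall ended at dim levels. The interaction of 1.44 (SE 0.19) had an adjusted p of 0.0562 with 12 arrays and of 0.0168 after quantile normalization, 0.00572 without both WT arrays and 0.00363 in the 10-array fit. The gap between the genotypes, knockout minus WT, was 0.99 without stimulus and 2.44 with oxLDL.

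ENSMUST00000021884 showed the less common form, a larger fall in the knockout. In WT it lay at 8.08, 8.24 and 8.08 without stimulus and at 7.56, 7.67 and 7.67 with oxLDL. Its knockout levels were 9.49, 9.56 and 9.41 without stimulus and at 8.33, 8.31 and 8.28 with oxLDL. The knockout started higher by 1.35 and came down to a gap of 0.67.

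The response was -0.50 in WT (SE 0.07, limma adjusted p = 0.00137) and -1.18 in the knockout (SE 0.07, adjusted p = 4.77e-05). Their difference of -0.67 (SE 0.10) did not pass with 12 arrays (adjusted p = 0.167) or after quantile normalization (adjusted p = 0.0934), and passed without both WT arrays (adjusted p = 0.0392) and in the 10-array fit (adjusted p = 0.0230). With 12 arrays it was second among negative interactions by p. In WT, and in the stimulated knockout, this transcript lay below the array median on every array, and only the unstimulated knockout arrays were above it. It therefore entered the test through the group where it is high, and its WT fall was read between dim levels.

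**Figure D2:**
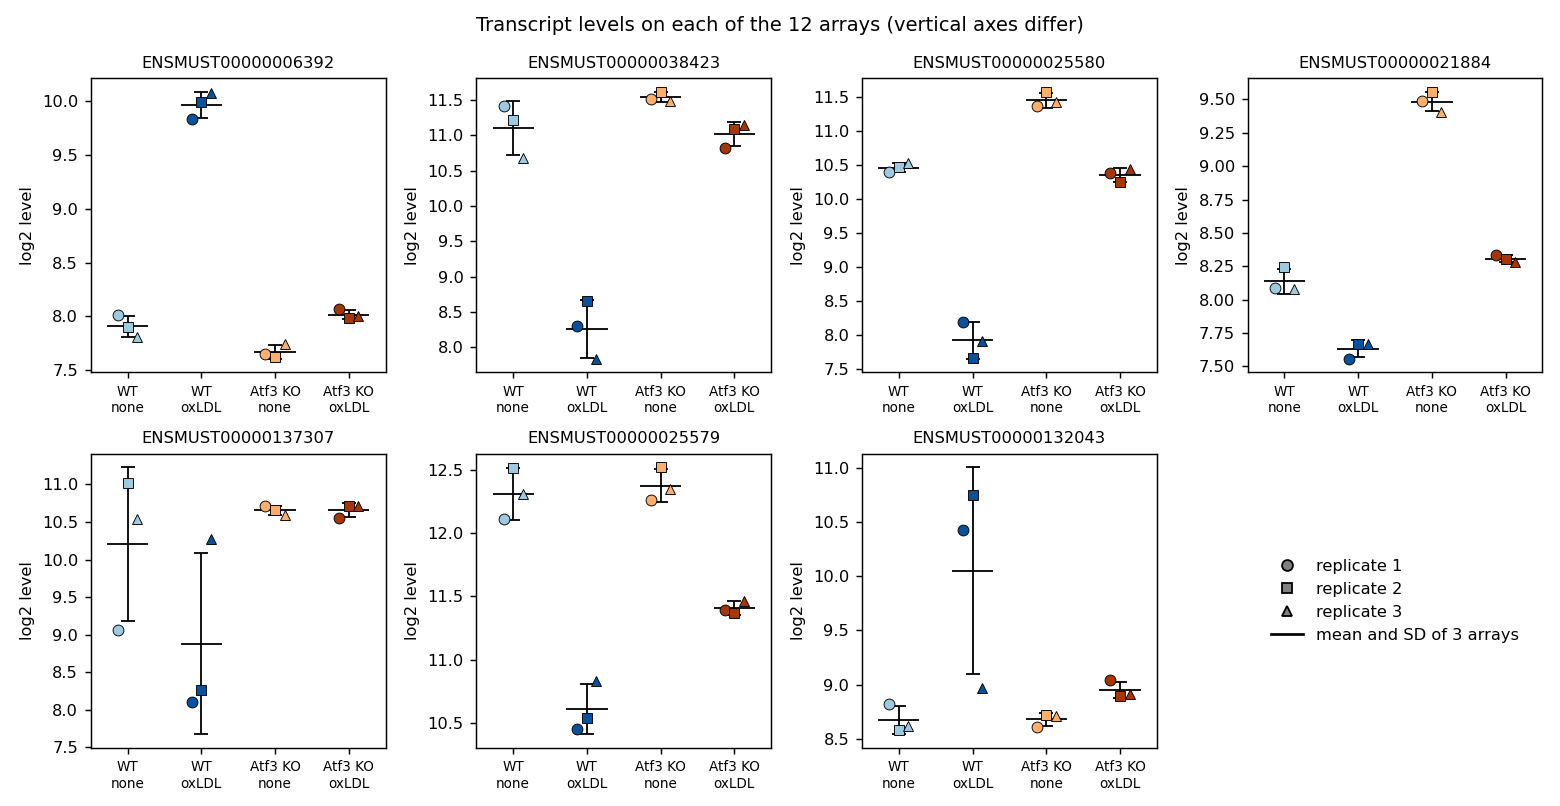
Log2 levels (vertical axes, which differ between panels) of the 7 transcripts shown, in the 4 groups (horizontal axes), with symbols for replicates 1 to 3, and the mean and SD of 3 arrays as lines. For ENSMUST00000006392 the 3 WT arrays with oxLDL lie at 9.83 to 10.07 and the other 9 at 7.62 to 8.06, while for ENSMUST00000137307 WT oxLDL replicate 3 lies at 10.28 and its mates at 8.10 and 8.26.

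Some transcripts led the 10-array fit and were far from the threshold with 12 arrays. ENSMUST00000137307 lay at 9.06, 11.01 and 10.54 in unstimulated WT and at 8.10, 8.26 and 10.28 in WT with oxLDL. In the knockout it lay at 10.71, 10.66 and 10.60 without stimulus and at 10.55, 10.72 and 10.72 with oxLDL. The 6 knockout arrays were flat, whereas replicate 1 was low among the unstimulated WT arrays and replicate 3 was high among the stimulated ones.

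With 12 arrays its interaction was 1.33 (SE 0.75, limma adjusted p = 1.00), and its WT response of -1.32 did not pass (SE 0.53, adjusted p = 0.174). Without both WT arrays the interaction was 2.60 (SE 0.17, adjusted p = 2.76e-05), and in the 10-array fit it was 2.60 (SE 0.14, adjusted p = 6.68e-05), the lowest p of that fit. Left out singly, no array gave a call, and the value ranged from 0.93 to 2.03. The result for this transcript rests on which 4 WT arrays are read.

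ENSMUST00000025579 fell in both genotypes and more deeply in WT. In WT it lay at 12.11, 12.52 and 12.31 without stimulus and at 10.46, 10.54 and 10.83 with oxLDL. Knockout levels were 12.26, 12.52 and 12.35 without stimulus and at 11.39, 11.37 and 11.47 with oxLDL. The unstimulated groups overlapped, with a gap of 0.06, and the stimulated groups did not, with a gap of 0.80.

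The WT response was -1.70 with 12 arrays (SE 0.13, limma adjusted p = 6.39e-05) and the knockout response -0.97 (SE 0.13, adjusted p = 0.00420). The interaction was 0.73 (SE 0.18, adjusted p = 0.597) with 12 arrays, 0.95 without both WT arrays (SE 0.13, adjusted p = 0.0116) and 1.17 in the 10-array fit (SE 0.08, adjusted p = 3.70e-04). After quantile normalization of 12 arrays it was 0.81 (SE 0.24, adjusted p = 0.471). Leaving out 1 array gave 0.63 to 0.85 and no call, with adjusted p of 0.105 to 1.00. Its WT groups did not overlap on the 6 WT arrays, unlike those of ENSMUST00000137307.

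Among rises, the 10-array fit again placed ENSMUST00000006392 first, followed by ENSMUST00000132043. This transcript lay at 8.82, 8.58 and 8.62 in unstimulated WT and at 10.43, 10.75 and 8.96 in WT with oxLDL. The knockout levels were 8.61, 8.72 and 8.71 without stimulus and at 9.04, 8.90 and 8.92 with oxLDL. WT oxLDL replicate 3 thus sat with the stimulated knockout arrays, far below its own mates.

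With 12 arrays the WT rise was 1.38 (SE 0.33, limma adjusted p = 0.0228) and the interaction -1.10 (SE 0.46, adjusted p = 1.00). Without both WT arrays the interaction was -1.72 (SE 0.14, adjusted p = 1.67e-04), and in the 10-array fit it was -1.63 (SE 0.11, adjusted p = 2.68e-04). Leaving out 1 array gave -1.65 to -0.75, and only the fit without WT oxLDL replicate 3 made the call (adjusted p = 0.00146). The knockout difference of 0.27 had an adjusted p of 0.00359 in the 6 knockout arrays alone.

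**Figure D3:**
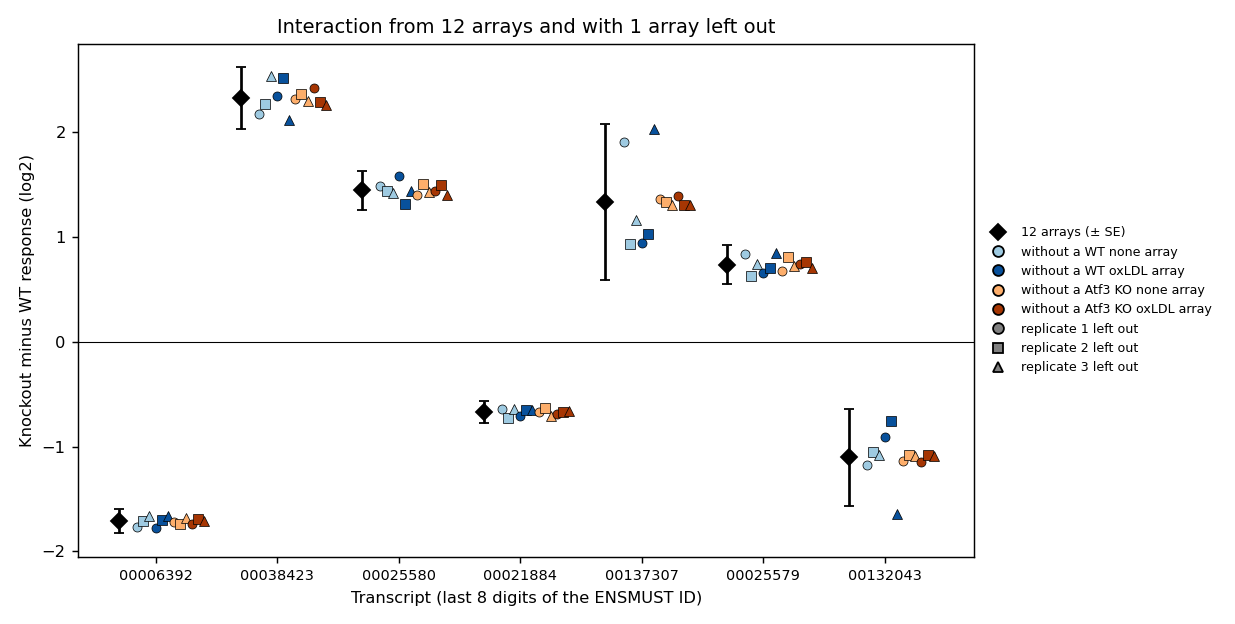
Interaction, knockout minus WT response on the log2 scale (vertical axis), of the 7 transcripts shown (horizontal axis), from 12 arrays with its SE (diamonds) and with each array left out in turn (coloured symbols). The value of ENSMUST00000006392 stays between -1.78 and -1.66, whereas that of ENSMUST00000137307 spans 0.93 to 2.03 and that of ENSMUST00000132043 spans -1.65 to -0.75.

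The transcripts called in the 10-array fit mostly shared 1 shape, a WT response that was smaller in the knockout. Of the 352, 165 fell in WT and fell less in the knockout, 137 rose in WT and rose less in the knockout, and 37 had a smaller knockout change of the opposite sign, by point estimates. The other 13 had the larger change in the knockout, 5 in the WT direction and 8 in the opposite one. The smaller change was thus in the knockout for 96.3% of the calls, against 70.2% of all tested transcripts.

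The same reading gave 105 of the 109 calls without both WT arrays and all 16 after quantile normalization. At an unadjusted p below 0.05 with 12 arrays it gave 1020 of 1149, or 88.8%, against 68.7% of all tested. Those 1149 are fewer than this threshold would pass with no interaction, as given above. The replicate SD over all 6 arrays of a genotype was 0.273 in WT and 0.0767 in the knockout, and a noisier WT estimate is more often the larger of the pair. The part of this spread in these counts was not tested.

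The median response of the 190 positive calls was -1.07 in WT and -0.35 in the knockout, and that of the 162 negative calls 0.85 in WT and 0.24 in the knockout. These values chose the lists and are given as a description. In the fit to the 6 knockout arrays alone, 246 of the 352 were called in the WT direction, 16 in the opposite direction and 90 were not called. That fit called 25.0% of all tested transcripts for the knockout response, against 1.52% with 12 arrays and 1 spread for all groups. The 6 knockout arrays also took part in choosing the 352. The 352 IDs hold 337 distinct profiles.

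**Figure D4:**
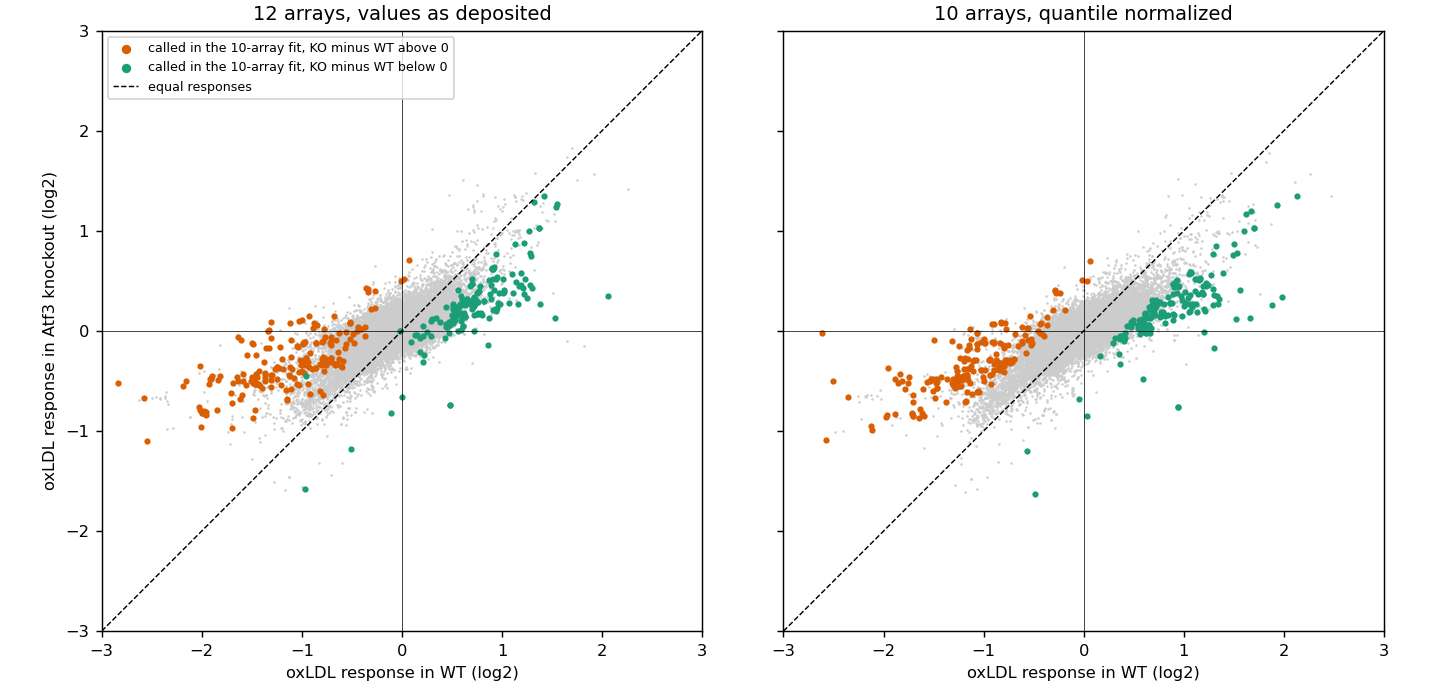
Response to oxLDL in the Atf3 knockout (vertical axes, log2) against that in WT (horizontal axes, log2) for the 39620 tested transcripts (grey), with 12 arrays as deposited on the left and in the 10-array fit on the right. The 190 positive (orange) and 162 negative (green) calls of the 10-array fit lie mostly between the dashed line of equal responses and the horizontal line of no knockout response.

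The distance between the genotypes with and without oxLDL was compared for the called transcripts. The signed change of this distance is the interaction itself, which chose the calls, so these values are a description. In the 10-array fit the distance was wider with oxLDL for 252 of 352 calls, or 71.6%, against 59.1% of all tested transcripts. Their median distance was 0.40 without stimulus and 0.71 with oxLDL, and 0.23 and 0.27 over all tested transcripts. The distance was wider for 115 of 190 positive calls, or 60.5%, near the share of all tested, and for 137 of 162 negative calls, or 84.6%, a difference that was not tested. Without both WT arrays and with values as deposited, it was wider for 65.1% of the 109 calls, against 61.5% of all tested. Among these, the 54 positive calls had a wider distance in 51.9%, with a median of 0.74 without stimulus and 0.72 with oxLDL. ENSMUST00000021884, above, was among those whose distance narrowed.

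With 12 arrays the oxLDL response itself passed for 2844 transcripts in WT (7.18%) and 604 in the knockout (1.52%). Both counts use 1 spread per transcript for all groups. With the 6 arrays of each genotype alone the order was reversed, with 277 in WT (0.699%) and 9896 in the knockout (25.0%). The counts therefore do not show which genotype responded more widely. Each genotype's response was next read on transcripts chosen in the other genotype alone. The 6 knockout arrays by themselves called 5576 rises (14.1% of those tested) and 4320 falls (10.9%). For the falls, the median response was -0.29 in the knockout and -0.45 in WT with all arrays, and the WT median stayed beyond the knockout median under the other settings: -0.42 against -0.30 after quantile normalization, -0.34 against -0.29 without both WT arrays and -0.41 against -0.30 in the 10-array fit. The WT arrays counted toward the filter on low values but took no part in the test that chose these transcripts.

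For the rises chosen in the knockout, the order depended on the arrays. The median was 0.22 in the knockout and 0.20 in WT with 12 arrays, 0.21 and 0.24 after quantile normalization, 0.22 and 0.36 without both WT arrays, and 0.21 and 0.28 in the 10-array fit. The knockout change was the smaller for 44.1% of these rises with 12 arrays and for 73.8% without both WT arrays. For the falls the corresponding shares were 75.1% and 62.1%. Over all tested transcripts they were 68.7% and 72.8%, so the 73.8% for the rises was near the share of all tested. The 62.1% for the falls was below it. After quantile normalization the shares were 55.2% for the rises and 66.9% for the falls, against 71.5% of all tested. In the 10-array fit they were 61.9% and 72.5%, against 70.2%. The shares for the falls were thus above, below or near those of all tested, depending on the setting. The knockout values made this choice, which favours large knockout changes.

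The reverse choice, by the 6 WT arrays alone, called 277 transcripts (0.699%), 54 of them rises (0.136%) and 223 falls (0.563%). Their knockout medians were 1.01 for the rises, against 1.19 in WT, and -0.59 for the falls, against -1.30 in WT. The knockout change had the same sign for 100% of the rises and 97.8% of the falls, and it was the smaller change for 40 of 54 rises and 220 of 223 falls. The WT values made the choice, which favours large WT changes, so both counts are a description.

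Both WT arrays left out of the 10-array fit counted toward the filter on low values but not toward the test that made its 352 calls. The difference between them, WT oxLDL replicate 3 minus unstimulated WT replicate 1, gave another reading of the WT change, with 1 array per group and no test. After quantile normalization over 12 arrays its median was -1.15 for the 190 positive calls, against -1.08 on the 4 WT arrays kept and -0.35 in the knockout. For the 162 negative calls it was 0.52, against 0.85 on the 4 arrays kept and 0.24 in the knockout. The left-out pair changed in the direction of the other WT arrays for 183 of 190 and 144 of 162, against 59.9% of all tested transcripts.

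The knockout change minus that of the left-out pair had the sign of the call for 167 of 190 positive calls (87.9%) and 125 of 162 negative calls (77.2%), against 54.6% over all tested transcripts with the same reading. With the values as deposited these were 185 of 190 and 79 of 162, against 52.2% of all tested transcripts, and the median change of the left-out pair was then -0.24 over all tested transcripts and 0.24 over the negative calls, against 0.25 in the knockout. Against the left-out pair, the knockout falls were the shallower under both scalings, and the knockout rises were the shallower under quantile normalization only. As deposited, the shift of -0.24 over all tested transcripts favours deeper falls and smaller rises on the left-out pair. That scaling therefore does not read falls and rises alike. The knockout arrays are common to both readings and took part in choosing the calls, so a small knockout change was partly built into the lists.

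**Figure D5:**
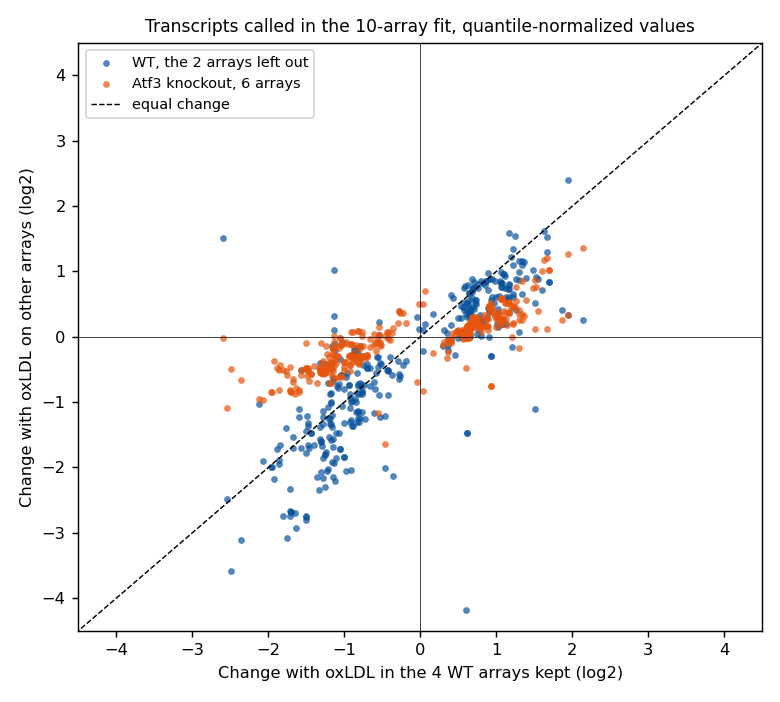
Change with oxLDL on the left-out WT pair (blue) and in the knockout (orange), on the vertical axis, against the change on the 4 WT arrays kept (horizontal axis), log2, quantile normalized, for the 352 calls of the 10-array fit. For the 190 positive calls the left-out pair has a median of -1.15, near the -1.08 of the arrays kept, and the knockout a median of -0.35.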

How the data were processed

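Total RNA of the macrophages was hybridised to Affymetrix Mouse Exon 1.0 ST arrays, with an array for each of the 12 samples, which the labels describe as 12 mice. The deposited values are log2 expression levels per transcript-level probe set, as the series' design text in the labels states. The submitters' processing notes name PLIER and Affymetrix Power Tools, with versions, background correction and normalization between arrays not given in the sources used here. Samples were grouped by genotype and stimulus in the labels.

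Testing was limited to probe sets above the median of their array on 3 or more of the 12 arrays. limma 3.58.1 in R 4.3.3 fitted a mean per group over all 12 arrays (lmFit, then eBayes with an intensity trend), and p-values were adjusted by Benjamini-Hochberg over the 39620 tested probe sets, with a threshold of 0.05 and two-sided tests. Fits without arrays kept the same probe sets. Named transcripts were every call of the 12-array fit and the lowest p-values per direction in the 12-array and 10-array fits, the latter only where both fits had the same sign, up to 4 each, 2 of them printed, counting IDs whose centred values differed by less than 0.15 on every array once. On simulated data, the 12-array fit was checked only for returning the sizes of known interactions. That check set no limit on false calls and did not cover quantile normalization or fits without arrays. Gene lists, marker lists and their alternatives could not be applied to unnamed IDs and were not run. The contrast, the arrays left out, the lists and the rule were chosen with earlier results of these data known. The reading of the left-out pair was chosen after the calls were seen.

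The labels describe separate mice, but whether cultures, RNA or processing days were shared is not given, so p-values reflect only how these samples varied, which may be partly technical. If the genotypes were handled on separate days, day and genotype cannot be told apart. The number of arrays limits the precision.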

Additional observations from a re-analysis of the deposited data

Results flagged for a closer look

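ENSMUST00000006392 had a response to oxLDL that differed between the genotypes in the test of the interaction, with a knockout minus WT difference of -1.71 on the log2 scale (SE 0.12, limma adjusted p = 1.18e-04). Every WT array with oxLDL lay above the other 9 arrays. No other transcript passed that test with 12 arrays as deposited. Groups of 3 arrays were too small to look for single outlying arrays by a fixed criterion.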

How the results depend on the processing

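The count of interactions was 1 without a filter, with the filter at the 25th percentile, with 16 added to the unlogged values, without an intensity trend, with a robust prior and with the replicate block. It was 5 (4 positive, 1 negative) with centring on array medians, 16 after quantile normalization, 109 without both WT arrays, 352 in the 10-array fit, 2 with 1 weight per genotype and 1406 (738 positive, 668 negative) with array weights, which gave WT oxLDL replicate 1 a weight of 1893 and the other arrays 0.0224 to 2.54, in a fit that stopped before converging. Leaving out 1 array gave 1 to 17: 3 and 4 without unstimulated WT replicate 1 and 3, and 5, 9 and 17 without WT oxLDL replicate 1, 2 and 3. Without 1 array, a group of 2 was assumed to vary like the others.

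The 2844 calls for oxLDL in WT became 6743 after quantile normalization, 4622 with median centring, 8362 without both WT arrays, 11353 in the 10-array fit, 9835 with array weights, 754 with 1 weight per genotype and 277 with the 6 WT arrays alone, and 2116 to 7304 without 1 array, the highest without WT oxLDL replicate 3. The 604 calls in the knockout became 1843, 1199, 3580, 6210, 14261, 10306 and, with the 6 knockout arrays alone, 9896, and 106 to 2117 without 1 array: 106 to 224 without a knockout array, and 2117 without WT oxLDL replicate 3. The causes of these changes were not tested. The replicate block gave 2828 in WT and 552 in the knockout. Same-numbered arrays of different groups had correlations of deviations from -0.31 to 0.51, over 0.1 in 4 of 18 pairs, so the numbers were not taken to pair samples.

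Over the 7 transcripts shown and 24 alternatives each, none of 168 interaction values changed sign. Of these values, 138 stayed on their side of the threshold and 30 newly passed it. Some transcripts were named only if their sign was the same with all arrays as deposited and after quantile normalization without both WT arrays. Stable signs were therefore partly built into the choice. All but ENSMUST00000006392 were uncalled with all arrays as deposited, so they could not lose a call. The counts describe the settings and do not show that the results are stable.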

Other observations

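Calls of the 10-array fit were spread unevenly over signal level. Ordered by mean level over 12 arrays, the dimmest 13207 tested transcripts (mean log2 level 7.71 to 9.11) held 61 calls, or 0.462%, the middle 13206 held 115, or 0.871%, and the brightest 13207 (9.93 to 14.2) held 176, or 1.33%. The median standard errors of the interaction were 0.11, 0.10 and 0.10 in the same order. Without both WT arrays and with values as deposited, these classes held 24, 43 and 42 calls.

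Of the 352 calls of the 10-array fit, 349 had the same sign and 3 the opposite one with 12 arrays as deposited. Their median absolute interaction was 0.65 in the 10-array fit and 0.58 with 12 arrays, where the median standard error was 0.23, and 218 had an unadjusted p below 0.05. The arrays kept are common to both fits.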
